A study of Mus musculus with 10 samples.

Results

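Cadherins, protocadherins and integrins were described in sorted gonadal somatic cells of mouse embryos, as 90 genes of the 13578 in the deposited expression table. They were all rows whose symbol was Cdh followed by a number, or began with Pcdh, Itga or Itgb. This gave 93 rows, of which the endothelial cadherin Cdh5, the kidney cadherin Cdh16 and the leukocyte integrin Itgam were set aside. The 90 genes comprised 16 cadherins (5 of type I, 9 of type II and 2 others), 51 protocadherins (11 outside the gene clusters, 18 of the beta cluster and 22 of the gamma cluster), and 21 integrin subunits (14 alpha and 7 beta). The remaining 2, Itgb1bp1 and Itgb3bp, carry an integrin name without being subunits. The rule gave 0 rows of the alpha cluster of protocadherins, so genes of that cluster were not analysed here.

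RNA was sequenced from the gonads of single female embryos at embryonic day 13.5. The withdrawn group held 5 embryos whose supply of vitamin C had been stopped for the first 2 weeks of gestation, and the supplied group held 5 embryos with physiological vitamin C. All 10 embryos were Gulo-/- on a C57BL/6 background. Gulo encodes the enzyme that completes the synthesis of vitamin C, which left both groups dependent on the diet, and neither was wild type. The cells were the Oct4- fraction of the gonad, which is a mixture of somatic cell types rather than a single one, and in such bulk samples fewer cells of a type and less RNA per cell cannot be told apart. Embryos 2 and 3 of each group carry the same number in their titles, but the labels do not say if they were litter mates, and p-values here cover only the spread between the 10 samples. The comparison asks how withdrawal of the vitamin bears on the RNA of the gonadal soma.

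Cadherins are calcium-dependent adhesion proteins that bind cadherins of neighbouring cells and are tied to actin by catenins. Protocadherins are a larger branch of the same superfamily, and genes of the beta and gamma clusters have a promoter for each variable exon, whose choice in neurons is tied to promoter DNA methylation. Gamma genes splice their variable exon to shared last exons, whereas beta genes do not. Integrins are pairs of an alpha and a beta subunit that bind matrix proteins such as fibronectin, laminin and collagen, or counter-receptors on other cells. In the fetal gonad, adhesion of these kinds holds together the supporting cells, the germ cells, the stroma and the surface epithelium.

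Values are the authors' regularised log2 (rlog) values, which pull weakly expressed genes towards their mean, so differences of such genes are understated. Differences are withdrawn minus supplied on this log2 scale, ± marks the SD over n = 5 embryos, and values by embryo run over embryos 1 to 5. Medians of the 10 samples lay between 9.12 and 9.14, and the read depth behind the values is unknown. All 17 markers of gonadal somatic cells had a row, against 4 of 19 germ cell markers. The means of the somatic list were 11.29 to 11.36 in withdrawn and 11.26 to 11.39 in supplied embryos, and those of the germ cell list 6.10 to 6.28 in withdrawn and 6.16 to 6.28 in supplied embryos. Supplied embryos 2 and 3 stood apart in the neural and glial list, with means of 7.97 and 7.58, against at most 7.12 in withdrawn and 6.96 to 7.13 in the other supplied embryos. Fos was highest in supplied embryo 4 (12.58) and in withdrawn embryos 3 (12.50) and 2 (11.70).

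Promoters of 3 members are shown. They belong to the integrin subunit gene of smallest p, the alpha subunit gene next to it by difference and the cadherin of widest spread. Of the members below at an unadjusted limma p under 0.05, Itga8 is the only one whose promoter was looked up and found. The sequences are the 250 bases before the annotated start, from RefSeq on GRCm38.p6, with each CpG (the letters CG, which read the same on both strands and are where DNA methylation is mostly found) in capitals. The Itga8 promoter is at chr2:12301945-12302194 on the minus strand and holds 18 CpG, that of Itga9 at chr9:118711442-118711691 on the plus strand holds 10, and that of Cdh23 at chr10:60696491-60696740 on the minus strand holds 5.
Itga8: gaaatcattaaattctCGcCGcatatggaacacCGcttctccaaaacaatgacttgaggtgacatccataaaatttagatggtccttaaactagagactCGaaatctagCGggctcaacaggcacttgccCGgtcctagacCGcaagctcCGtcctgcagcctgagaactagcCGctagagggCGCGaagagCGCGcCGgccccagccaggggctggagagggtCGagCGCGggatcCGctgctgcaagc
Itga9: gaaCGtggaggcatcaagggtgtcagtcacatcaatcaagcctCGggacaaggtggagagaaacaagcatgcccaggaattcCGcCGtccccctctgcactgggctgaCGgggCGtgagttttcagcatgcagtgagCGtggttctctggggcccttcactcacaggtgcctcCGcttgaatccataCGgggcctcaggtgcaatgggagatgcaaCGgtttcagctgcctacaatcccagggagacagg
Cdh23: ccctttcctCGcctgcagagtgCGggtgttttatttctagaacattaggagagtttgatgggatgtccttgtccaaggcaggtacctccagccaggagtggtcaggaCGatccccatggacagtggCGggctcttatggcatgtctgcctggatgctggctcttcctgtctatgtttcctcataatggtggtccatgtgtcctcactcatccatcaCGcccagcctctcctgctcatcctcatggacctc
Of the 90 members, 35 matched a promoter entry, with 40 promoters, the promoters of 43 were not looked up, and 12 others had no match. The 40 promoters held 2 to 30 CpG with a median of 12, against a median of 6 over all 32851 promoters of the same length. At least 10 CpG were found in 67.5% of the members' promoters and in 37.8% of all promoters. The 2 sets are unlike, since every member had a row in the expression table and all promoters were not limited to such genes. The median and share over the genes of the expression table were not computed. Whether many CpG are particular to the members was therefore not tested. DNA methylation at these sites was not analysed here.

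No member passed the test of withdrawn against supplied embryos (limma, Benjamini-Hochberg adjustment over all 13578 genes, adjusted p under 0.05), and the smallest limma adjusted p of a member was 0.900. Over all genes 0.0221% passed, 3 genes, none of them a member. At an unadjusted limma p under 0.05 stood 9 of the 90 members (10%), against 5.3% of all genes. Of these, 4 were higher in withdrawn embryos, Itga8, Pcdhb19, Pcdhb20 and Cdh13 (2.45% of all genes were higher), and 5 were lower, Itgb2, Pcdhgb6, Pcdhb5, Pcdhga8 and Pcdhb7 (2.84% of all genes were lower). Of the 9, 6 belong to the clustered protocadherins, which make up 40 of the 90 members. By exact permutation, two-sided, 8 members had an unadjusted p under 0.05, 4 in each direction, against 5.19% of all genes. These 8 are not a subset of the 9. Itga8 and Itgb2 dropped out (exact permutation p = 0.0635 and 0.0714), and Pcdh18 came in (exact permutation p = 0.0317). Pcdhb20 was the 1 member whose groups did not overlap, against 0.81% of all genes. In it all withdrawn embryos lay above (0.346% of all genes), and no member had all withdrawn embryos below (0.464% of all genes).

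The differences of the members were small in either direction. They ran from -0.14 (Itgb2) to 0.20 (Cdh23), with 52 above 0 and 38 below, a median of 0.013 and a median size of 0.040. All genes had a median of 0.00021 and a median size of 0.032. The residual SD between embryos had a median of 0.0740 over the members and 0.0730 over all genes. The farthest bound of any member's 95% interval was 0.43 (Cdh23), followed by 0.33 for Itga8 and 0.32 for Itgb3, so that on the rlog scale every member's interval left out differences above 0.43 in size.

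**Figure D1:**
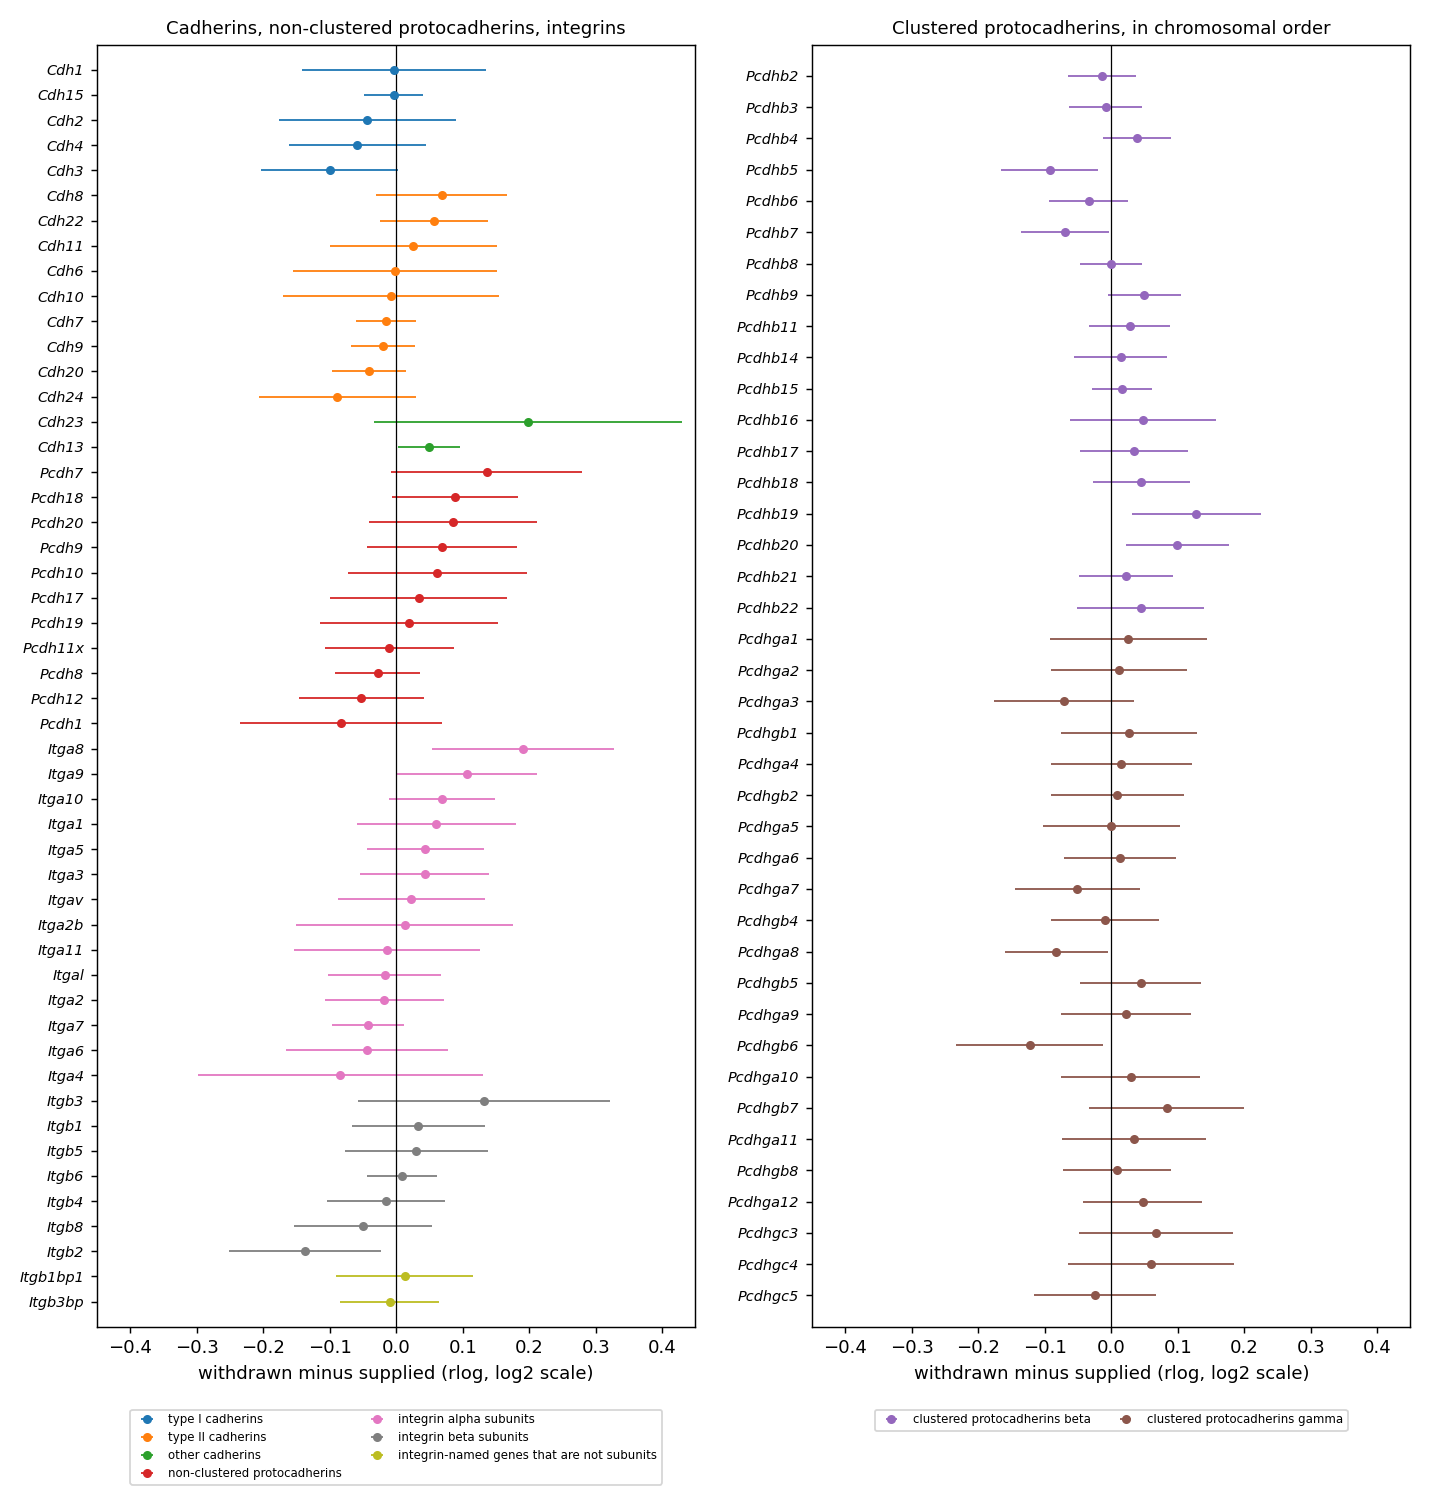
Difference of each of the 90 members, withdrawn minus supplied (x axis, rlog, log2 scale), with its 95% interval from limma (bars). Colours mark the families, clustered protocadherins stand in chromosomal order in the right panel, and the intervals of 9 members leave out 0.

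**Figure D2:**
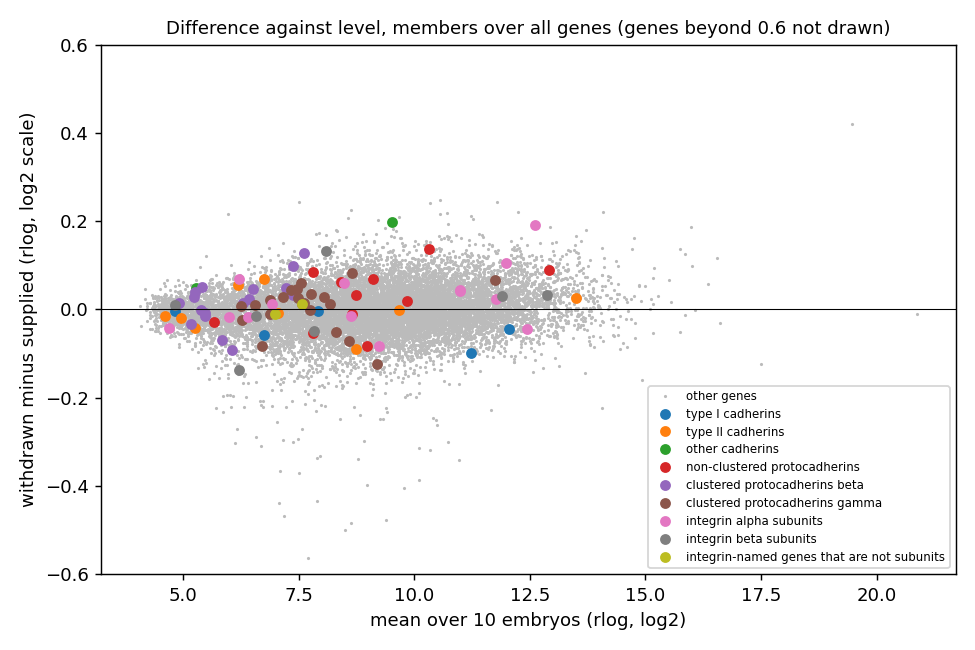
Difference, withdrawn minus supplied (y axis, rlog, log2 scale), against the mean over the 10 embryos (x axis, rlog) for the 90 members (coloured by family) and all other genes (grey); 4 genes beyond 0.6 on the y axis are not drawn. The members lie within the cloud of all genes, between -0.14 and 0.20.

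All 5 type I cadherins, the classical cadherins of epithelia, neural tissue and muscle, had differences below 0, with a median of -0.043 (-0.068 to -0.014 without each embryo in turn, nearest to 0 without withdrawn embryo 3), and none was at an unadjusted limma p under 0.05. The shared sign did not hold in every setting. Cdh1 changed sign in 7 of 22 settings, with 0.037 without withdrawn embryo 1. Cdh2 changed sign in 2 of 22 settings, with 0.029 when the neural list mean was in the fit. Without supplied embryo 2, Cdh2 was nearer to 0 but still below it, at -0.0046. Cdh3 (P-cadherin, an epithelial cadherin) had 11.13, 11.22, 11.07, 11.21 and 11.29 in withdrawn embryos, against 11.32, 11.35, 11.23, 11.21 and 11.32 in supplied embryos. The groups overlapped, with withdrawn embryo 5 above supplied embryos 3 and 4. The difference was -0.10 with an interval from -0.20 to 0.0033 (limma adjusted p = 0.931).

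Cdh2 (N-cadherin, which joins mesenchymal and neural cells) was at 12.03 ± 0.119 in withdrawn and 12.07 ± 0.117 in supplied embryos, a difference of -0.043 with an interval from -0.18 to 0.090. Its highest embryos were supplied embryo 2 at 12.23 and withdrawn embryo 4 at 12.22, so each group held 1 of them. Cdh1 (E-cadherin, of epithelia and germ cells) had 7.76, 8.02, 7.76, 7.97 and 8.08 in withdrawn embryos and 7.87, 7.85, 7.87, 7.96 and 8.07 in supplied embryos. The groups overlapped, with withdrawn embryos 2 and 4 within the supplied range, withdrawn embryos 1 and 3 below it and withdrawn embryo 5 above it. The difference was -0.0033 with an interval from -0.14 to 0.14. Cdh4 (R-cadherin, known from the retina) differed by -0.058 and Cdh15 (M-cadherin of skeletal muscle) by -0.0038 at a mean of 4.83.

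Type II cadherins, of which Cdh11 is the mesenchymal one, were on both sides of 0, with 3 above and 6 below and a median of -0.0083 (-0.030 to 0.0087 without each embryo in turn). Cdh11 had 13.56, 13.58, 13.59, 13.42 and 13.40 in withdrawn embryos and 13.56, 13.40, 13.51, 13.61 and 13.34 in supplied embryos. The groups overlapped, with a difference of 0.026 and an interval from -0.099 to 0.15. Cdh6 (K-cadherin, of the developing kidney) differed by -0.0017, with its highest values in supplied embryo 2 (9.90) and withdrawn embryo 4 (9.87).

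Cdh10, a cadherin of the nervous system, had 7.10, 6.97, 6.94, 7.23 and 6.98 in withdrawn embryos and 7.12, 7.35, 6.97, 6.94 and 6.88 in supplied embryos. Supplied embryo 2, the embryo of the highest neural and glial list mean, was the highest, whereas supplied embryo 3, next in that list, was at 6.97. Of the 12 tested neural and glial markers 2 lay above 0 and 10 below, with a median of -0.11. The smallest p-values belonged to the secretory granule gene Chgb (-2.10) and the intermediate filament gene Prph (-0.043). The part of these cells in the Cdh10 values was not tested. Without supplied embryo 2 the difference of Cdh10 was 0.067, against -0.0083 with it, and with the neural list mean in the fit it was 0.099. The largest differences of the family were -0.089 for Cdh24, -0.041 for Cdh20, 0.068 for the neural cadherin Cdh8 and 0.056 for Cdh22, and Cdh7 and Cdh9 were at -0.015 and -0.020.

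Cdh23 and Cdh13 are cadherins of unusual build. Cdh23, a long cadherin known from the tip links of inner ear hair cells, had 9.74, 9.57, 9.94, 9.27 and 9.54 in withdrawn embryos, against 9.48, 9.04, 9.43, 9.51 and 9.62 in supplied embryos. The groups overlapped: withdrawn embryo 3 was the highest and supplied embryo 2 the lowest, and withdrawn embryo 4 lay below 4 of the 5 supplied embryos. This range of 0.904 between embryos was the widest of any member. The difference was 0.20 with an interval from -0.034 to 0.43 (limma adjusted p = 0.956), and it was 0.10 without supplied embryo 2, 0.12 without withdrawn embryo 3 and 0.046 with the neural list mean in the fit. Cdh13 (T-cadherin, which is held to the membrane by a lipid anchor and lacks the part that binds catenins) was at 5.30 ± 0.0286 in withdrawn and 5.25 ± 0.0208 in supplied embryos. The difference of 0.049 had an interval from 0.0023 to 0.097 (unadjusted limma p = 0.0409, exact permutation p = 0.0238, limma adjusted p = 0.931), and the groups overlapped, with withdrawn embryo 1 at 5.27 within the supplied range of 5.23 to 5.28.

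Of the 11 protocadherins outside the clusters, which are signalling adhesion proteins best known from the brain, 7 lay above 0 and 4 below, with a median of 0.034. The median was 0.012 without withdrawn embryo 4, 0.063 without withdrawn embryo 1 and -0.0046 without the 3 libraries of highest Fos. Pcdh18 had 13.07, 12.94, 12.97, 12.92 and 12.93 in withdrawn embryos and 12.96, 12.86, 12.87, 12.84 and 12.86 in supplied embryos. Only supplied embryo 1 reached the withdrawn range. The difference was 0.088 with an interval from -0.0068 to 0.18 (exact permutation p = 0.0317, limma adjusted p = 0.947).

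Pcdh7 had the largest difference of the family, 0.14, with an interval from -0.0075 to 0.28 (limma adjusted p = 0.936). It was 0.088 without supplied embryo 1 and 0.21 without the 3 libraries of highest Fos. Its values were 10.35, 10.27, 10.41, 10.56 and 10.34 in withdrawn embryos, against 10.06, 10.38, 10.17, 10.42 and 10.24 in supplied embryos. Withdrawn embryo 4 was the highest and supplied embryo 1 the lowest, with overlap between. In GENCODE M21, 2235 of its exon bases lie opposite exons of 4932441J04Rik, and strand use in counting is a point not given in the sources used here.

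Pcdh1, known from epithelia, and Pcdh12, known from endothelium, lay below 0. Pcdh1 was at 8.94 ± 0.125 in withdrawn and 9.02 ± 0.153 in supplied embryos (difference -0.083, interval -0.23 to 0.069). Its lowest value was 8.74 in withdrawn embryo 1 and its highest 9.23 in supplied embryo 2. Pcdh12 was at 7.78 ± 0.0513 in withdrawn and 7.83 ± 0.0676 in supplied embryos (difference -0.053), with its highest value, 7.93, in supplied embryo 1. Beside it, 14 of the 18 endothelial markers lay below 0 and 4 above, with a median of -0.033, with the smallest p-values for the TGF-beta co-receptor Eng (-0.39) and Ramp2 (-0.20). The list mean was 8.43 to 8.56 in withdrawn and 8.50 to 8.68 in supplied embryos, highest in supplied embryo 4, where Pcdh12 was at 7.86, and the part of endothelial cells in the Pcdh12 value was not tested. The other 7 were Pcdh20 (0.085), Pcdh9 (0.069), Pcdh10 (0.062), Pcdh17 (0.034), Pcdh19 (0.019), Pcdh11x (-0.010) and Pcdh8 (-0.028).

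The beta cluster, whose genes consist of a single large coding exon each, held 4 of the 9 members at an unadjusted limma p under 0.05. Pcdhb19 and Pcdhb20 were higher and Pcdhb5 and Pcdhb7 lower in withdrawn embryos. These 4 were 22.2% of the cluster's 18 genes, against 5.3% of all genes. The 18 genes lay between mean levels of 4.90 and 7.61, with 12 differences above 0, 6 below and a median of 0.025. Without supplied embryo 5, the lowest embryo in 7 of the 18 genes and in 1328 of all 13578 genes, the median was 0.012. Pcdhb20 had 7.41, 7.38, 7.46, 7.41 and 7.44 in withdrawn embryos, against 7.33, 7.34, 7.27, 7.37 and 7.29 in supplied embryos. All 5 withdrawn embryos lay above all 5 supplied embryos, by a gap between withdrawn embryo 2 and supplied embryo 4 that was smaller than the SD of either group. The difference was 0.10 (SE 0.0368, limma adjusted p = 0.900), and its exact permutation p of 0.00794 is the smallest that 5 against 5 embryos allow.

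Pcdhb19, its neighbour on the chromosome, had 7.72, 7.59, 7.72, 7.68 and 7.65 in withdrawn embryos, against 7.51, 7.57, 7.51, 7.66 and 7.46 in supplied embryos. Supplied embryo 4 lay among the withdrawn embryos and the other 4 supplied embryos lay below all of them. The difference was 0.13 (SE 0.0459, limma adjusted p = 0.900).

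Pcdhb5 had 6.05, 6.07, 6.03, 5.99 and 5.97 in withdrawn embryos, against 6.07, 6.12, 6.21, 6.11 and 6.04 in supplied embryos. Supplied embryo 3 was the highest, and supplied embryos 1 and 5 lay within the withdrawn range or at its upper edge. Its difference was -0.093 (SE 0.0345, limma adjusted p = 0.900). Pcdhb7 was at 5.81 ± 0.0360 in withdrawn and 5.88 ± 0.0589 in supplied embryos, with supplied embryo 2 highest at 5.98 (difference -0.070, SE 0.0316, limma adjusted p = 0.931). The 14 other beta genes lay between -0.034 (Pcdhb6) and 0.050 (Pcdhb9), with Pcdhb22 at 0.044 and Pcdhb17 at 0.034. Exons of Pcdhb21 and Pcdhb22 share 455 bases in GENCODE M21 and beta genes resemble each other in sequence, so reads may be split between them and their single values are uncertain.

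The gamma cluster had 15 differences above 0, 7 below and a median of 0.014 over 22 genes (-0.0011 to 0.029 without each embryo in turn). Of the 7, Pcdhgb6 and Pcdhga8 were at an unadjusted limma p under 0.05, and Pcdhga3 (-0.071), Pcdhga7 (-0.051), Pcdhgc5, Pcdhgb4 (-0.0097) and Pcdhga5 (-0.00032) were not. Pcdhgb6 and Pcdhga8 were 9.09% of the 22 genes, against 5.3% of all genes. Pcdhgb6 had 9.12, 9.16, 9.07, 9.17 and 9.12 in withdrawn embryos, against 9.30, 9.23, 9.26, 9.39 and 9.08 in supplied embryos. In this gene 4 supplied embryos lay above all withdrawn embryos, and supplied embryo 5 lay among the withdrawn ones. The difference was -0.12 (SE 0.0525, unadjusted limma p = 0.0320, exact permutation p = 0.0476, limma adjusted p = 0.928).

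Pcdhga8 had 6.66, 6.71, 6.71, 6.56 and 6.66 in withdrawn embryos, against 6.74, 6.76, 6.69, 6.77 and 6.77 in supplied embryos. Only supplied embryo 3 lay within the withdrawn range, and the difference was -0.083 (SE 0.0367, limma adjusted p = 0.928). The C-type gene Pcdhgc3 was at 11.78 ± 0.0787 in withdrawn and 11.72 ± 0.109 in supplied embryos (difference 0.068, interval -0.049 to 0.18). Pcdhgb7 differed by 0.083 and the C-type genes Pcdhgc4 and Pcdhgc5 by 0.060 and -0.024. By kind, 8 of 12 genes of the a type, 5 of 7 of the b type and 2 of 3 of the C type lay above 0. Gamma genes share their last exons, 2116 to 3154 bases in GENCODE M21 with a median of 2119, so a read from the shared part cannot be given to 1 gene and the 22 values are not independent.

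**Figure D3:**
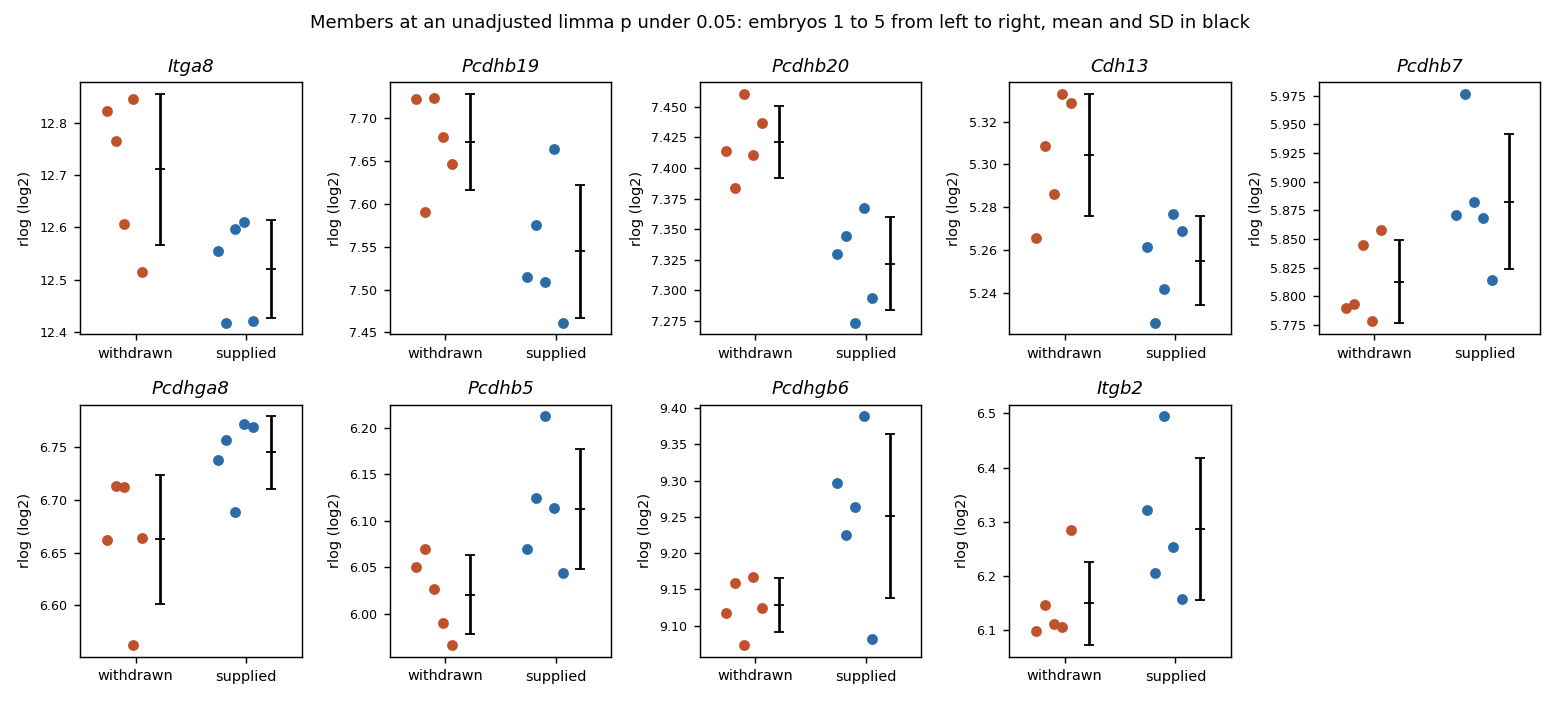
The 9 members at an unadjusted limma p under 0.05: rlog value (y axis, log2, a scale of its own in each panel that does not start at 0) of each embryo in the withdrawn (left) and supplied (right) group, embryos 1 to 5 from left to right, with the group mean and SD in black. Pcdhb20 is the panel without overlap between the groups.

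Integrin alpha subunits, which set the ligand of an integrin pair, had 8 differences above 0, 6 below and a median of 0.018 over 14 genes (-0.012 to 0.033 without each embryo in turn). Itga8, whose pair with Itgb1 binds nephronectin and is known from kidney development, had 12.82, 12.76, 12.61, 12.85 and 12.51 in withdrawn embryos, against 12.55, 12.42, 12.60, 12.61 and 12.42 in supplied embryos. Withdrawn embryos 1, 2 and 4 lay above all supplied embryos, while withdrawn embryos 3 and 5 lay within the supplied range. The difference was 0.19 (SE 0.0649), 1.14-fold on the rlog scale, with an interval from 0.054 to 0.33 (unadjusted limma p = 0.00923, exact permutation p = 0.0635, limma adjusted p = 0.900). E030013I19Rik, which overlaps 372 exon bases of Itga8 on the opposite strand, differed by -0.019 (limma adjusted p = 0.995).

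Itga9, whose pair with Itgb1 binds tenascin and fibronectin, had 11.97, 12.13, 12.10, 12.08 and 11.96 in withdrawn embryos, against 12.03, 11.81, 11.94, 12.002 and 11.92 in supplied embryos. Withdrawn embryos 2, 3 and 4 lay above all supplied embryos and the other 2 among them. The difference was 0.11 with an interval from -0.00070 to 0.21 (limma adjusted p = 0.931). Itga5, of the classical fibronectin receptor, was at 0.044, and Itgav, of the vitronectin receptors, at 0.023.

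Itga4, which pairs with Itgb1 on leukocytes and mesenchyme to bind fibronectin and VCAM, was at 9.19 ± 0.187 in withdrawn and 9.28 ± 0.239 in supplied embryos. Its values spread from 9.02 in withdrawn embryo 4 to 9.63 in supplied embryo 3, and the difference was -0.084 with an interval from -0.30 to 0.13. Without supplied embryo 3 it was 0.0047, and without supplied embryo 2 or withdrawn embryo 5 it was -0.14. In GENCODE M21, exons of Itga4 overlap those of Cerkl on the opposite strand by 1124 bases.

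The laminin receptors were at -0.044 (Itga6, 12.42 ± 0.133 in withdrawn and 12.47 ± 0.0515 in supplied embryos), 0.043 (Itga3) and -0.043 (Itga7, a subunit of muscle). The collagen receptors, Itga1, Itga2, Itga10 and Itga11, were at 0.060, -0.018, 0.068 and -0.014, with intervals that all held 0 and reached at most 0.18. The leukocyte subunit Itgal was at -0.017 and was highest in withdrawn embryo 5 (6.10) and supplied embryo 1 (6.07).

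Among integrin beta subunits, Itgb2, the partner of Itgal and Itgam on leukocytes, had 6.10, 6.15, 6.11, 6.11 and 6.28 in withdrawn embryos, against 6.32, 6.21, 6.49, 6.25 and 6.16 in supplied embryos. The highest embryos of each group were withdrawn embryo 5 and supplied embryo 3, and the groups overlapped. The difference was -0.14 (SE 0.0539, unadjusted limma p = 0.0211, exact permutation p = 0.0714, limma adjusted p = 0.928), the lowest of all members. Without supplied embryo 3 it was -0.085. Withdrawn embryo 5 and supplied embryo 3 also had the highest mean of the macrophage and leukocyte list, at 7.41 and 7.44, where the list ran from 7.17 to 7.41 in withdrawn and from 7.18 to 7.44 in supplied embryos. Of 16 tested markers of that list 12 lay below 0 and 4 above, with a median of -0.033, with the smallest p-values for Itgam (-0.22) and the lysozyme gene Lyz2 (-0.30). In the erythroid list, too, withdrawn embryo 5 (9.54) and supplied embryo 3 (9.58) were the highest of their groups, so the match is not particular to leukocytes. The part of macrophages and leukocytes in the Itgb2 value was not tested.

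Itgb3 and Itga2b form the fibrinogen receptor of platelets. Itgb3 had 8.14, 7.99, 8.01, 8.20 and 8.40 in withdrawn embryos, against 8.003, 8.37, 7.94, 7.87 and 7.90 in supplied embryos. Supplied embryo 2 was next to the highest of all embryos and the other 4 supplied embryos lay at or below 8.003. The difference was 0.13 with an interval from -0.057 to 0.32 (limma adjusted p = 0.972), and it was 0.069 without withdrawn embryo 5 and 0.22 without supplied embryo 2. Itga2b had 6.80, 6.76, 6.85, 7.06 and 7.15 in withdrawn embryos and 6.82, 7.16, 6.95, 6.79 and 6.84 in supplied embryos, with a difference of 0.013. Withdrawn embryo 5 and supplied embryo 2 were the highest in both genes and in the mean of the megakaryocyte and platelet list (6.40 and 6.37), which ran from 6.11 to 6.40 in withdrawn and from 6.14 to 6.37 in supplied embryos. Of the 13 markers on that list 5 had a row, 2 above 0 and 3 below, with a median of -0.0057, and the smallest p-values belonged to the chemokine gene Pf4 (0.093) and the transcription factor gene Nfe2 (-0.096). The match is not particular to this list. Withdrawn embryo 5 was also the highest withdrawn embryo in the endothelial, macrophage and leukocyte, erythroid, germ cell and duct lists. Supplied embryo 2 was also the highest embryo in the neural and glial list. The part of megakaryocytes and platelets in the Itgb3 and Itga2b values was not tested.

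**Figure D4:**
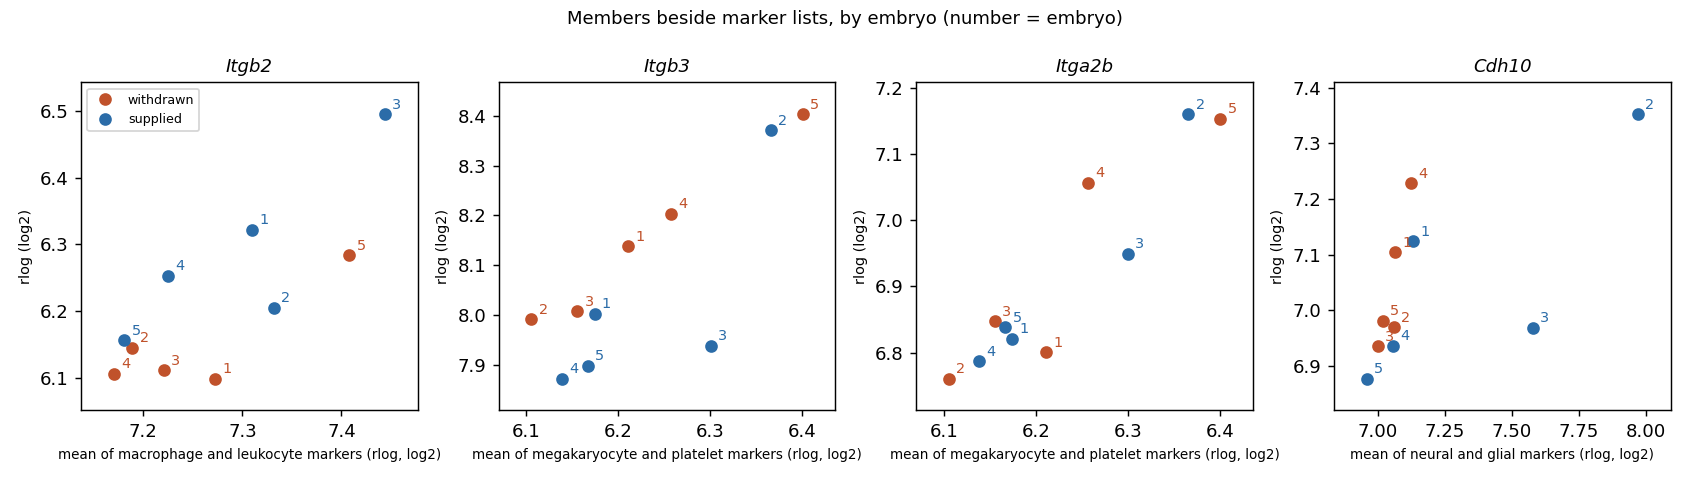
Level of Itgb2, Itgb3, Itga2b and Cdh10 (y axes, rlog, log2) against the mean of a marker list in the same embryo (x axes, rlog, log2), withdrawn and supplied embryos in different colours with their embryo number. The genes were drawn with their values known, and withdrawn embryo 5 and supplied embryo 2 stand highest in the Itgb3 and Itga2b panels.

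Itgb1, the partner of most alpha subunits, was at 12.89 ± 0.0502 in withdrawn and 12.86 ± 0.0784 in supplied embryos, a difference of 0.034 with an interval from -0.066 to 0.13. Itgb5, which pairs with Itgav, differed by 0.030 and was highest in withdrawn embryo 1 (12.05) and supplied embryo 1 (12.01). Itgb8 and Itgb6, whose pairs with Itgav activate latent TGF-beta, were at -0.050 and 0.0094, and Itgb4, the partner of Itga6 in hemidesmosomes, was at -0.015. Itgb1bp1, which binds the tail of Itgb1, and Itgb3bp, a kinetochore protein, were at 0.013 and -0.0098.

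Per kilobase of exon (the mean rlog over all embryos less the log2 of the exon length in GENCODE M21), Itgb1 had the highest level of the members outside the gamma cluster, at 10.85, followed by Pcdh18 at 10.50, Cdh11 at 10.34 and Itgb5 at 10.06. On the same scale Itga8 was at 9.73, Itga6 at 9.27, Cdh3 at 9.10, Itga9 at 9.05 and Cdh2 at 9.04, and Cdh1 was at 5.73. The gamma cluster was left out of this order because its genes share exons.

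**Figure D5:**
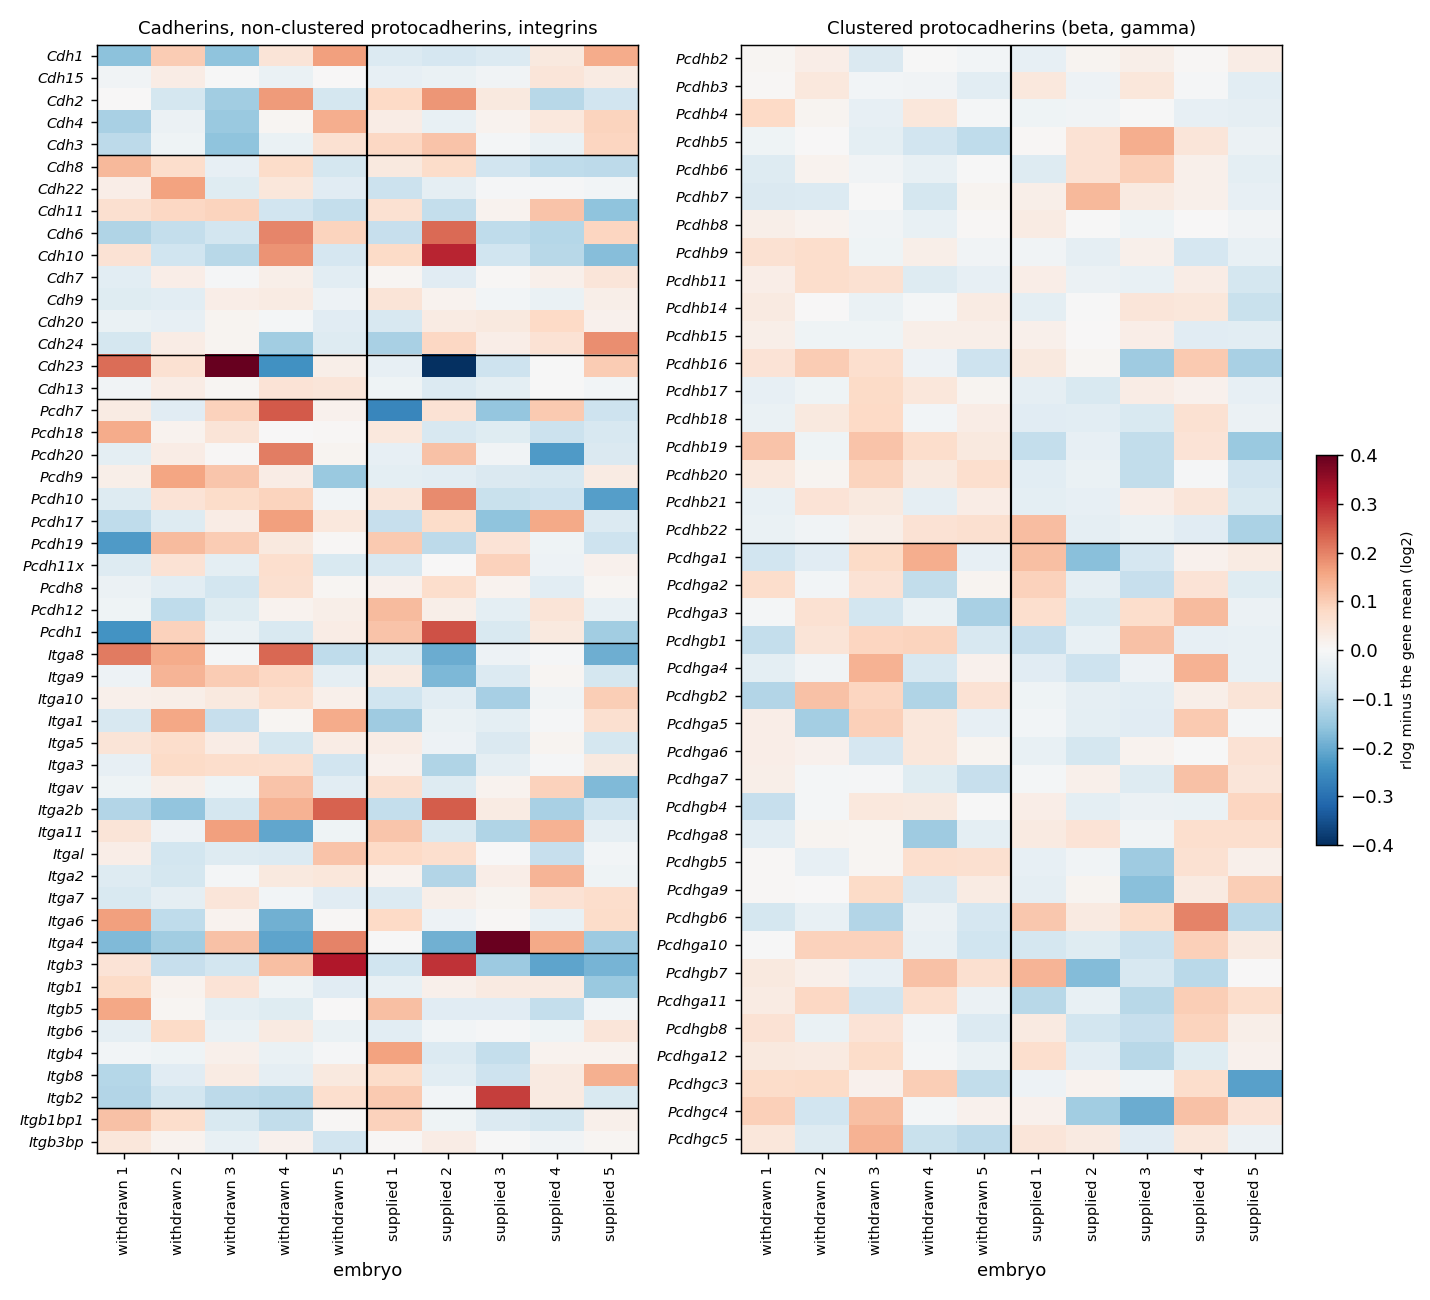
Each member in each embryo as its rlog value less the gene's mean over the 10 embryos (colour, log2), genes grouped by family and withdrawn embryos to the left of supplied embryos. The colours end at 0.4, which Cdh23 passes in withdrawn embryo 3 and supplied embryo 2, and no family separates the groups as a block.

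By embryo, members were highest in withdrawn embryos 1 to 5 in 8, 12, 10, 9 and 4 genes and in supplied embryos 1 to 5 in 7, 9, 9, 13 and 9 genes. Supplied embryo 4 was the highest of all embryos in 8 of the 22 gamma genes.

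Partners of the members gave no gene that passed either. Of 14 tested catenins and junction linkers, which tie cadherins to actin, 7 lay above 0 and 7 below (median -0.0047), with Ctnnd1, which stabilises cadherins at the membrane, at 0.090 and the related Pkp4 at 0.081. Of 27 integrin adaptors and kinases 14 lay above and 13 below (median 0.0032), with the actin crosslinker Actn1 at 0.097 and the focal adhesion gene Parva at 0.090. None of these 41 genes was at an unadjusted limma p under 0.05. Of 14 genes on a list of other cadherin superfamily members, which also holds the Golgi kinase gene Fjx1 (0.031), 10 lay above 0 and 4 below (median 0.047). In this list 3 genes had an unadjusted limma p under 0.05, 1 higher and 2 lower, against 5.3% of all genes. The desmosomal cadherins Dsc2 and Dsg2 were at -0.17 and -0.13 (limma adjusted p = 0.900 and 0.901), and Dchs1, a cadherin of planar cell polarity, was at 0.15 (limma adjusted p = 0.907).

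Of the other marker lists, none held a gene that passed over all genes by limma. The 10 tested erythroid markers had 3 above and 7 below 0 (median -0.037; Epb4.2 -0.14, Hemgn -0.082), and the 4 tested germ cell markers 2 above and 2 below (median -0.034; Tdrd1 -0.20, Tfap2c 0.067). The 15 mesonephric and duct markers had 4 above and 11 below (median -0.070; Krt8 -0.14, Cldn6 -0.10), and the 9 surface epithelium markers 4 above and 5 below (median -0.024; Krt7 -0.23, Krt14 -0.091). The duct list mean was 8.63 to 8.87 in withdrawn and 8.64 to 8.85 in supplied embryos, and the surface list mean 9.87 to 9.98 in withdrawn and 9.94 to 10.06 in supplied embryos. Their part in the values of the epithelial cadherins Cdh1 and Cdh3 was not tested. The 17 gonadal somatic markers had 9 above and 8 below (median 0.0023; Irx5 0.15, Pdgfra 0.15), and the 16 immediate early genes 12 above and 4 below (median 0.047; Klf6 0.11, Egr3 0.11).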

How the data were processed

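RNA of sorted gonadal somatic cells from 10 single embryos (2 ng of total RNA each, in a low-input total RNA kit, per the labels' protocols) was given as 1 table. The authors deposited regularised values on a log2 scale (rlog) for 13578 genes. Trim Galore 0.4.0, TopHat2 2.1.1, DESeq2 1.20.1 and the build mm9 are named in the submitters' processing notes. The counter, its use of strand and the annotation are not given in the sources used here. Since rlog values carry no depth, no count model was run and no counting interval is given. Values ran from 4.04 to 21.2, and 0% of genes had equal values in any pair of samples.

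Samples were grouped by the treatment label. Genes with a mean of at least 3 were tested, which removed 0 genes. All genes were fitted with limma 3.58.1 in R 4.3.3 (variance trend, no covariate, Benjamini-Hochberg adjustment at 0.05). An exact permutation test of the means over all orders of the samples, two-sided (smallest possible p 0.00794), stood beside it. Figures were drawn with matplotlib 3.10.9. The fit was also run on simulated data, where the added differences were all larger in size than that of any member. That run does not show what the fit would detect at the members' size. Exon lengths and overlaps came from GENCODE M21 and promoters from RefSeq, both on GRCm38 and not the table's build, and no coordinates were converted.

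The members, the 13 gene lists and the settings were chosen with earlier results of these data known. Members named were those at an unadjusted p under 0.05, in each family the 2 of largest difference in each direction, the 2 of highest mean and the 2 of widest range, and 9 fixed genes (Cdh1, Cdh2, Cdh11, Itgb1, Itgav, Itga6, Itga2b, Itgb2 and Itgb3), and of each list the 2 genes of smallest p. The remaining members are given by value, and other list genes named were chosen after their values were seen. Alternatives were another mean minimum (5, or none), no variance trend, robust variance, sample weights, quantile normalization, median centring, a replicate block, averaging by title number, the neural list mean as covariate, leaving out supplied embryos 2 and 3 or the 3 libraries of highest Fos, and leaving out each embryo.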

Additional observations from a re-analysis of the deposited data

Results flagged for a closer look

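In groups of 5 embryos, a single embryo stood far from the other 4 relative to the group's range in 4 of the 82 groups examined (2 groups for each of the 41 named members), and chance flags about 1 in 20. Itgb2 was 6.28 in withdrawn embryo 5, where the nearest other withdrawn embryo was at 6.15. Itgb5 was 12.05 in withdrawn embryo 1, where the nearest was at 11.90. Itgb3 was 8.37 in supplied embryo 2, where the nearest was at 8.003. Pcdh18 was 12.96 in supplied embryo 1, where the nearest was at 12.87.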

How the results depend on the processing

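In each of 22 settings 0 members passed by limma; at an unadjusted p under 0.05 there were 9 in the reported fit. The 3 genes passing over all genes were 1 without a variance trend, with quantile normalization or with embryos of a shared title number averaged, 5 with robust variance or sample weights, and 0 to 4 without each embryo in turn (0 without withdrawn embryo 5 or supplied embryo 1). The 4 members higher at an unadjusted p under 0.05 were 8 with the neural list mean in the fit and 4 to 6 without each embryo. The 5 lower were 3 with averaging by title number, 1 with the neural list mean or without supplied embryos 2 and 3, 2 without the 3 libraries of highest Fos, and 1 to 6 without each embryo (1 without withdrawn embryo 1, 2 without supplied embryo 3, 3 without withdrawn embryo 4 or supplied embryo 2). The cause of these shifts was not tested. Of 180 family medians under the alternatives, 179 moved by less than the spread between embryos and 24 changed sign; the median of integrin alpha subunits, 0.018, was -0.012 without supplied embryo 5 and at most 0.033 without any other embryo. Of the 41 named members 12 had the opposite sign in at least 1 setting, and none of these was among the 9 at an unadjusted p under 0.05. The 9 were picked by their p in the same data, so a kept sign was likely beforehand and says little about their stability. Same-numbered embryos of the 2 groups had correlations of -0.36 to 0.17. With 1 value for each number, this cannot decide whether the numbers pair the samples. Embryos 2 and 3, which share a title number, had a correlation of 0.14 in the supplied and 2.8e-05 in the withdrawn group. With the replicate block 0 members and 2 of all genes passed, and 4 members were higher and 3 lower at an unadjusted p under 0.05. Depth is unknown, and the rlog scale limits what weakly expressed members can show.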

Other observations

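Along the beta cluster of protocadherins, all 9 analysed genes from Pcdhb14 to Pcdhb22 had differences above 0, withdrawn minus supplied, between 0.014 and 0.13 with a median of 0.044 on the rlog scale. Of the 9 analysed genes before Pcdhb14, 3 lay above 0 and 6 below, with a median of -0.0082. The first stretch had mean levels from 4.90 to 7.61 and the second from 5.17 to 6.07. The split was chosen after the values were seen, and neighbouring beta genes can share reads, so it was not tested.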
